A study of Rattus norvegicus with 30 samples.

Results

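The proteasome is the cell's main protease for proteins tagged with ubiquitin, and its genes were followed here in rat kidneys on a low and a high salt diet. Members were all protein coding genes of the deposited table whose symbol matched the proteasome naming pattern (*Psma* to *Psmg* followed by a digit), which gave 48 of 32545 genes. Of these, 5 were the immunoproteasome genes *Psmb8*, *Psmb9*, *Psmb10*, *Psme1* and *Psme2*, and 43 were the other members. *Psmc3ip* is in the set by its symbol only, since it encodes a protein that binds PSMC3 and is not a subunit of the particle. *Psme3*, a nuclear activator of the same family, had no protein coding entry under that symbol in the table and was not analysed here.

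mRNAseq was performed on the right kidney of male Sprague-Dawley rats, with separate libraries for the cortex (Cx) and the outer medulla (OM). The LS groups received a 0.4% NaCl diet, and the HS14 and HS21 groups had been switched from it to 4.0% NaCl for 14 and 21 d. Each of the 6 combinations of tissue and diet held 5 libraries. No allele or other agent was named for any group.

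The core particle of the proteasome is a barrel of alpha and beta rings, and its proteolytic sites lie in the beta subunits encoded by *Psmb5*, *Psmb6* and *Psmb7*. A regulatory particle of ATPases (*Psmc* genes) and other subunits (*Psmd* genes) sits on its ends, binds ubiquitinated proteins and unfolds them. Interferon gamma induces the alternative catalytic subunits *Psmb8*, *Psmb9* and *Psmb10*, which take the places of *Psmb5*, *Psmb6* and *Psmb7* in newly assembled particles, and the activator made of *Psme1* and *Psme2*. Leukocytes make these immune subunits without induction, and the peptides that such particles cut are loaded onto class I molecules for display to T cells.

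*Psmb9* (chr20:3973420-3978845, minus strand, Rnor_6.0) and *Psmb8* (chr20:3990613-3993769, plus strand) lay on either side of *Tap1*, the peptide transporter of the class I pathway, in the major histocompatibility complex. The gap between the annotated genes was 189 bases from *Psmb9* to *Tap1* and 943 bases from *Tap1* to *Psmb8*. *Psmb10* was on chromosome 19 (chr19:37909546-37912027, minus strand). *Psme1* and *Psme2* were neighbours on chromosome 15, 6609 bases apart.

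The promoters of the immune genes are shown because 4 of these genes moved together in the comparisons described here, with that of *Psmb5* as the constitutive counterpart of *Psmb8*. Each runs from 250 bases before to 50 bases after the start of the gene in the RefSeq annotation of GRCr8, 300 bases in all, 5′ to 3′ on the strand of the gene. Capitals mark matches to GAAANNGAA on either strand, the core letters of the interferon-stimulated response element. The windows are chr20:4656982-4657281 (minus strand) for *Psmb8*, chr19:50743243-50743542 (minus strand) for *Psmb10*, chr15:33052702-33053001 (minus strand) for *Psme2*, chr20:4668750-4669049 (plus strand) for *Psmb9* and chr15:32047330-32047629 (minus strand) for *Psmb5*.
Psmb8: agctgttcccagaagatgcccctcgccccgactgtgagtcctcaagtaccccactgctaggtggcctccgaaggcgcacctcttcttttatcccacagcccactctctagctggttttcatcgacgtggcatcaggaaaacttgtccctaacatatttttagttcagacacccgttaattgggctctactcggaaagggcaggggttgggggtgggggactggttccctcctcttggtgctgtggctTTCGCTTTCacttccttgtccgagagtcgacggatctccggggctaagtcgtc
Psmb10: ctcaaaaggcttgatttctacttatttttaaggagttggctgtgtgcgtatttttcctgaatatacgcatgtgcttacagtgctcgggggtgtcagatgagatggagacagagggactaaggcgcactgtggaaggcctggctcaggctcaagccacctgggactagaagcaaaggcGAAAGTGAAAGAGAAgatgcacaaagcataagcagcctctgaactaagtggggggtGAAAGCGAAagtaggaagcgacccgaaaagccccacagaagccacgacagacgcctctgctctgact
Psme2: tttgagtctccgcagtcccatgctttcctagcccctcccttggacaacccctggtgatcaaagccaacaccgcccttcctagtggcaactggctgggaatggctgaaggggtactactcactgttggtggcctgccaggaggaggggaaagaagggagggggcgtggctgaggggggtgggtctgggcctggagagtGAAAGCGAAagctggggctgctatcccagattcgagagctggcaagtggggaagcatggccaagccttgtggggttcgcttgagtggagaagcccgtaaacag
Psmb9: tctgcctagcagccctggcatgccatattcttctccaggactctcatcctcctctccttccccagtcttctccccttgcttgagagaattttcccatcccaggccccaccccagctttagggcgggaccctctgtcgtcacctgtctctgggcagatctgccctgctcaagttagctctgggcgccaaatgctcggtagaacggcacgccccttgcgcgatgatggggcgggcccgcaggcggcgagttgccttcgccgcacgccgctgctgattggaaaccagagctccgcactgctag
Psmb5: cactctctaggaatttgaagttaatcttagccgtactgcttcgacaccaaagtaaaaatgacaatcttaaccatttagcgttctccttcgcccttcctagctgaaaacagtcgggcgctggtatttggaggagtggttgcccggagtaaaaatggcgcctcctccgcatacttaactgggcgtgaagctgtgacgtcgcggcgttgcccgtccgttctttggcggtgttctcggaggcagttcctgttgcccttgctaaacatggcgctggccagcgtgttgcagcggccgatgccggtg

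The *Psmb8* promoter held 1 match, whose first base lay 3 bases before the start of the gene. The *Psmb10* promoter held 3, which began 73, 67 and 17 bases before the start, and the first 2 of these overlapped. The *Psme2* promoter held 1 match, 53 bases before the start. The promoters of *Psmb9* and *Psmb5* held none, as did that of *Psme1*. The *Tap1* promoter, which shared 44 bases with that of *Psmb9* on the opposite strand, held 1. With the gap of 189 bases in Rnor_6.0 these windows would share far more than 44 bases. The annotated starts therefore differ between the annotations, and the *Psmb9* window may miss part of the region between the genes. Matches outside the windows were not looked for. Among the 43 members with a promoter in the table, GAAANNGAA was present in 3 of the 5 immune genes and in 6 of the 38 other members, beside 9.71% of all 33469 promoters of this length. The letters of the gamma activated site, TTCNNNGAA, were present in 1 immune gene, *Psmb8*, where the match did not overlap the first motif, and in 3 other members, beside 8.87% of all promoters. The letters TGACNNNGC, the core of the antioxidant response element, were present in 0 immune genes and 8 other members, beside 12.1% of all promoters. A match describes the letters in these windows and is not evidence of a bound site.

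The libraries held 5408126 to 21842843 counted read pairs. The members took 0.303% to 0.309% of the counts in Cx LS, and from 0.293% to 0.352% in every library of the series except OM HS14 replicate 10, where they took 0.211%. That library had the fewest counts, and the next lowest total was 12748841. It stood apart in the members themselves: 42 of the 45 members tested were lower in it than in the mean of the other 4 OM HS14 libraries, with a median log2 ratio of -0.95 on the log2(CPM + 0.1) scale. All 26 members with a gene length of at most 1500 bases were lower in it (median -1.21), while the 5 members over 2500 bases had a median of 0.10 and *Psme4*, the longest of all members at 7130 bases, was 0.86 higher. In the paper's quality data this library had the lowest share of mapped reads of the series. It also had the lowest exonic and the highest intronic share of mapped bases. These length limits were chosen after the values were seen, and the part of RNA quality was not tested. OM LS replicate 2 also stood apart, since the summed CPM (counts relative to library size, scaled by TMM) of 8 proximal tubule genes, which mark the main tubule of the cortex, reached 14810 in it and had a median of 5470 over the 5 OM LS libraries, beside 19860 to 21960 in Cx LS. Results that rest on these 2 libraries are given with and without them.

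Levels of different genes were compared per length, as FPKM deposited by the authors. In Cx LS the highest members were the core subunits *Psmb4* at 138 FPKM and *Psma7* at 127 FPKM, while *Psma3*, the lowest core subunit tested outside the immune genes, stood at 30.9 FPKM. The ATPases of the regulatory particle ranged from 33.3 FPKM for *Psmc6* to 69.5 FPKM for *Psmc1*, and its other subunits from 25.6 FPKM for *Psmd14*, the enzyme that removes ubiquitin chains, to 87.2 FPKM for *Psmd2*, a scaffold subunit. The assembly chaperones of the core particle were lower, between 11.7 FPKM for *Psmg3* and 23.6 FPKM for *Psmg1*.

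The immune catalytic genes were expressed well below their constitutive counterparts on the LS diet. In Cx LS the mean ± SD was 2.76 ± 1.25 FPKM for *Psmb8* and 87.0 ± 2.86 FPKM for *Psmb5*. It was 7.89 ± 1.08 FPKM for *Psmb9* and 81.2 ± 2.37 FPKM for *Psmb6*. The nearest pair was *Psmb10* at 13.2 ± 1.55 FPKM and *Psmb7* at 34.7 ± 1.01 FPKM (n = 5 for each). *Psme2* stood at 35.2 ± 0.69 FPKM, above the 3 immune catalytic genes.

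*Psme1*, *Psma8* and *Psmb11* were too low to be tested in any comparison. *Psme1*, the partner of *Psme2* in the activator, had 0 to 8 counts per library and 78 in all 30 libraries together, and whether its reads were assigned to a near-identical copy was not tested. *Psma8*, an alpha subunit of the germ line, had 12 counts in all and 0 in 25 libraries, and *Psmb11*, the thymic catalytic subunit, had 7 counts in all and 0 in 24 libraries. The other 45 members passed the filter on low counts in all 8 comparisons, 4 of them immune genes and 41 other members.

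The first question was how the members changed in the Cx after 21 d on the HS diet. All 4 immune genes tested rose, *Psmb8* by 5.84-fold, *Psmb9* by 4.53-fold, *Psmb10* by 2.79-fold and *Psme2* by 1.71-fold. The constitutive members moved far less, between a fall of *Psmd11* by 0.37 and a rise of *Psmg4* by 0.31 on the log2 scale. Bulk tissue does not separate fewer or more cells of a type from less or more RNA per cell, so a changed level of an immune gene cannot be told apart from a changed number of the cells that express it.

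*Psmb8* was measured at 9.56, 4.31, 6.86, 4.93 and 2.89 CPM in Cx LS replicates 1 to 5 and at 33.6, 27.1, 13.5, 38.3 and 53.5 CPM in Cx HS21 replicates 11 to 15. The groups did not overlap, and replicate 13 was the lowest HS21 library. HS21 exceeded LS by 2.55 on the log2 scale (SE = 0.37, adjusted *P* = 0.000364).

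*Psmb9* was measured at 12.5, 11.7, 14.5, 11.4 and 10.02 CPM in Cx LS and at 43.7, 42.0, 18.2, 66.9 and 101.5 CPM in Cx HS21. Again the groups did not overlap and replicate 13 was closest to the LS libraries. On the log2 scale the rise was 2.18 (SE = 0.36, adjusted *P* = 0.000768).

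*Psmb10* was measured at 14.6, 13.9, 14.2, 11.3 and 11.6 CPM in Cx LS and at 31.7, 27.2, 15.3, 49.6 and 59.6 CPM in Cx HS21. The gap between the groups was small, because replicate 13 of HS21 was only just above replicate 1 of LS. The fitted log2 ratio was 1.48 (SE = 0.30, adjusted *P* = 0.00245).

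*Psme2* was measured at 48.3, 46.5, 45.9, 47.8 and 47.5 CPM in Cx LS and at 73.4, 76.6, 55.4, 88.5 and 111 CPM in Cx HS21. The LS libraries were tightly grouped and each HS21 library was above them. The fitted log2 ratio was 0.78 (SE = 0.14, adjusted *P* = 0.00148).

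**Figure D1:**
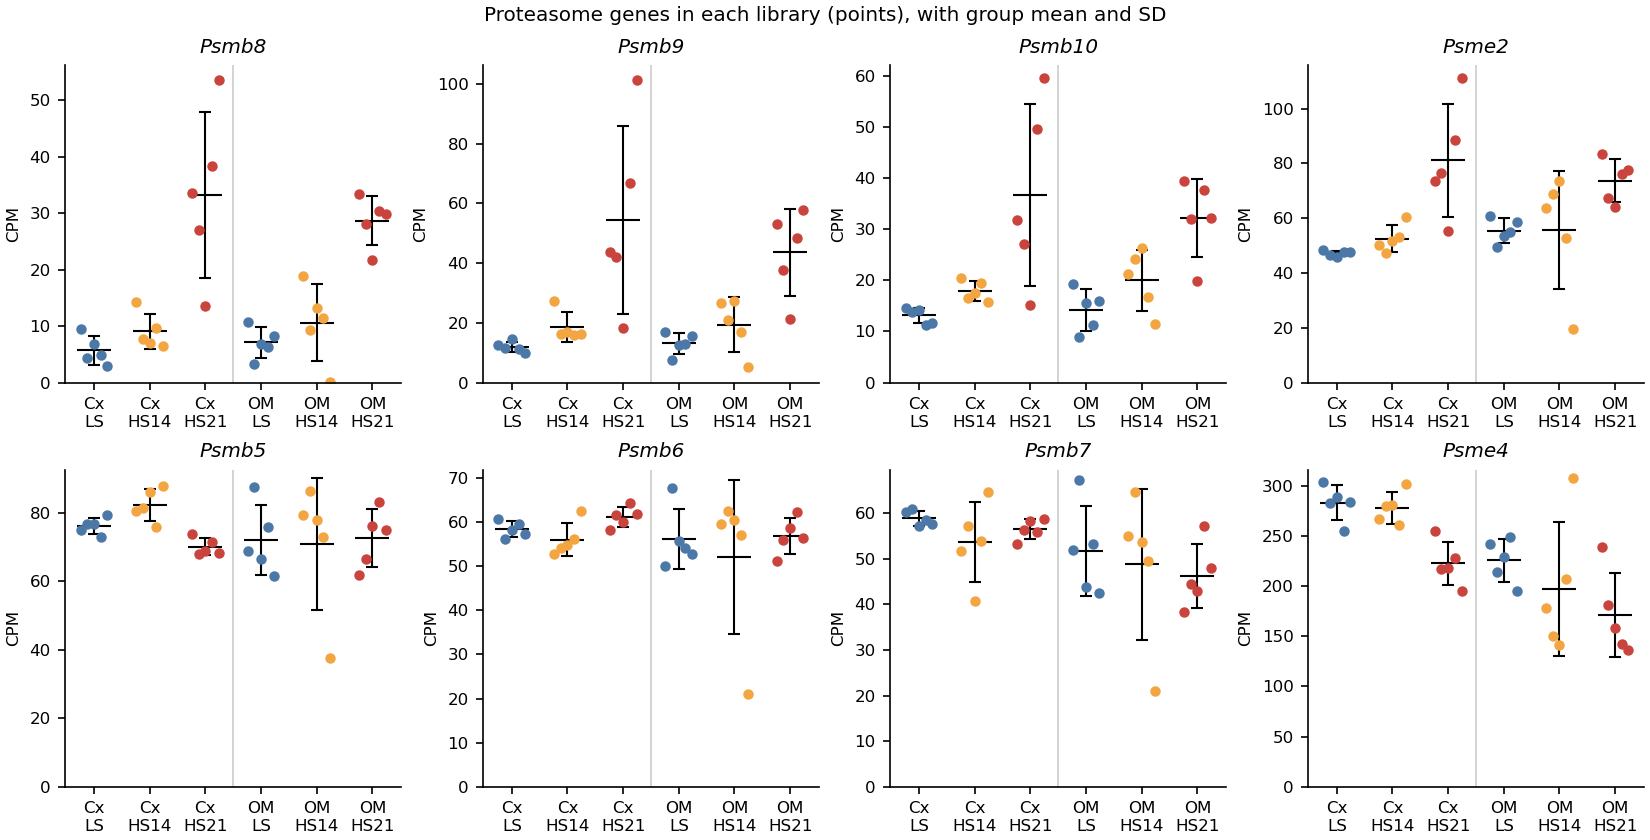
CPM of 8 proteasome genes (vertical axes, from 0) in each of the 30 libraries, with groups by tissue and diet on the horizontal axis, points for libraries in order of replicate number, and a horizontal line with bars for the mean ± SD (n = 5). *Psmb8* reached 13.5 to 53.5 CPM in Cx HS21, above the 2.89 to 9.56 CPM of Cx LS, while *Psmb6* stayed between 56.2 and 64.3 CPM in both groups, and OM HS14 replicate 10 was the lowest OM HS14 library for each gene but *Psme4*.

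In all, 7 members were raised and 13 were lowered in Cx HS21, where 18.9% of the 14299 genes tested were raised and 20.5% were lowered. Neither count is read as particular to the members as a whole. Split by kind, 4 of 4 immune genes were raised (median log2 ratio 1.83), and of the 41 other members 3 were raised and 13 lowered (median -0.07), beside a median of 0.01 over all genes. The 4 immune genes kept their calls in every alternative and with each library left out.

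With TMM scaling, the catalytic subunits of the constitutive core stayed within 0.13 of their LS level on the log2 scale. *Psmb5* was measured at 74.9, 76.7, 76.7, 72.9 and 79.5 CPM in Cx LS and at 73.8, 67.9, 68.9, 71.4 and 68.2 CPM in Cx HS21. The groups overlapped, since HS21 replicate 11 lay above LS replicate 4. The log2 ratio was -0.12 (SE = 0.04, adjusted *P* = 0.0448), and this call was lost when any library other than LS replicate 4 was left out. It was also lost in each of the 5 alternatives, among them DESeq2 and its size factors. *Psmb6* stood at 0.07 on the log2 scale (SE = 0.05, adjusted *P* = 0.277) and *Psmb7* at -0.06 (SE = 0.05, adjusted *P* = 0.318), and both had overlapping groups.

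Of the 14 constitutive core subunits tested, *Psma7* was called as raised by 0.15 (adjusted *P* = 0.0287), and *Psma1* and *Psmb5* as lowered. *Psma1* was not called with total counts, without a filter or in one fit of 30 libraries. With libraries left out, it kept its call only without LS replicate 2 or 5 or HS21 replicate 13. Among the 6 ATPases of the regulatory particle 1 was raised and 1 lowered. Its non-ATPase subunits had 7 of 11 lowered and 0 raised with a median log2 ratio of -0.19, beside 3 lowered, 1 raised and a median of -0.06 when libraries were scaled by total counts. *Psmd11*, a subunit of the lid that covers the base of the particle, was measured at 124 to 135 CPM in Cx LS (median 126.0) and at 87.7 to 107 CPM in Cx HS21 (median 102). These groups did not overlap, and the log2 ratio was -0.37 (SE = 0.06, adjusted *P* = 0.000544). *Psmd2* and *Psmd1*, the largest scaffold subunits of the base, fell by 0.32 and 0.31 on the log2 scale, and *Psmd14* fell by 0.27 (adjusted *P* = 0.000341, 0.00017 and 0.0021). Among the ATPases, *Psmc3* rose by 0.13 and *Psmc6* fell by 0.18.

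Among the accessory members, *Psme4*, a large activator that binds the core particle without ATP, was measured at 255.4 to 304.1 CPM in Cx LS (median 284.1) and at 195.5 to 254.9 CPM (median 218.5) in Cx HS21. The ranges nearly met but did not overlap, with replicate 11 the highest of HS21. The log2 ratio was -0.35 (SE = 0.07, adjusted *P* = 0.00259). The core chaperone *Psmg4* rose by 0.31 and its relative *Psmg2* fell by 0.25, and the regulatory particle chaperone *Psmd5* fell by 0.20. *Psmf1*, named as a proteasome inhibitor, had a log2 ratio of 0.03 (adjusted *P* = 0.69).

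The balance of the constitutive members depended on the scaling. With libraries scaled by their total counts, 15 members were raised and 4 lowered in Cx HS21, and over all genes 4401 were raised and 1653 lowered, beside 2702 and 2936 with TMM. Total counts moved the median log2 ratio of all genes to 0.13 and that of the 41 other members to 0.07. *Psmd1*, *Psmd2*, *Psmd11*, *Psme4*, *Psma7*, *Psmc3*, *Psmg4* and the 4 immune genes kept both call and direction under total counts, whereas *Psmb5* and *Psmb7* changed sign. Total counts moved the ratios up, so a raised call kept there says little. *Psma7* and *Psmc3* each lost their call in 5 of 10 fits with a library left out, and also without a filter. *Psmg4* lost its call in 3 of 10. In one fit of 30 libraries *Psma7*, *Psmc3*, *Psmg4* and *Psme4* were not called. *Psmb1*, *Psmb3*, *Psmb4*, *Psmb6* (log2 ratio 0.195), *Psmc4*, *Psmd4*, *Psmf1* and *Psmg1* were called as raised under total counts but not with TMM. Leaving out HS21 replicate 14 gave 7 lowered members, and leaving out LS replicate 2 gave 4 raised ones, which were the immune genes.

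**Figure D2:**
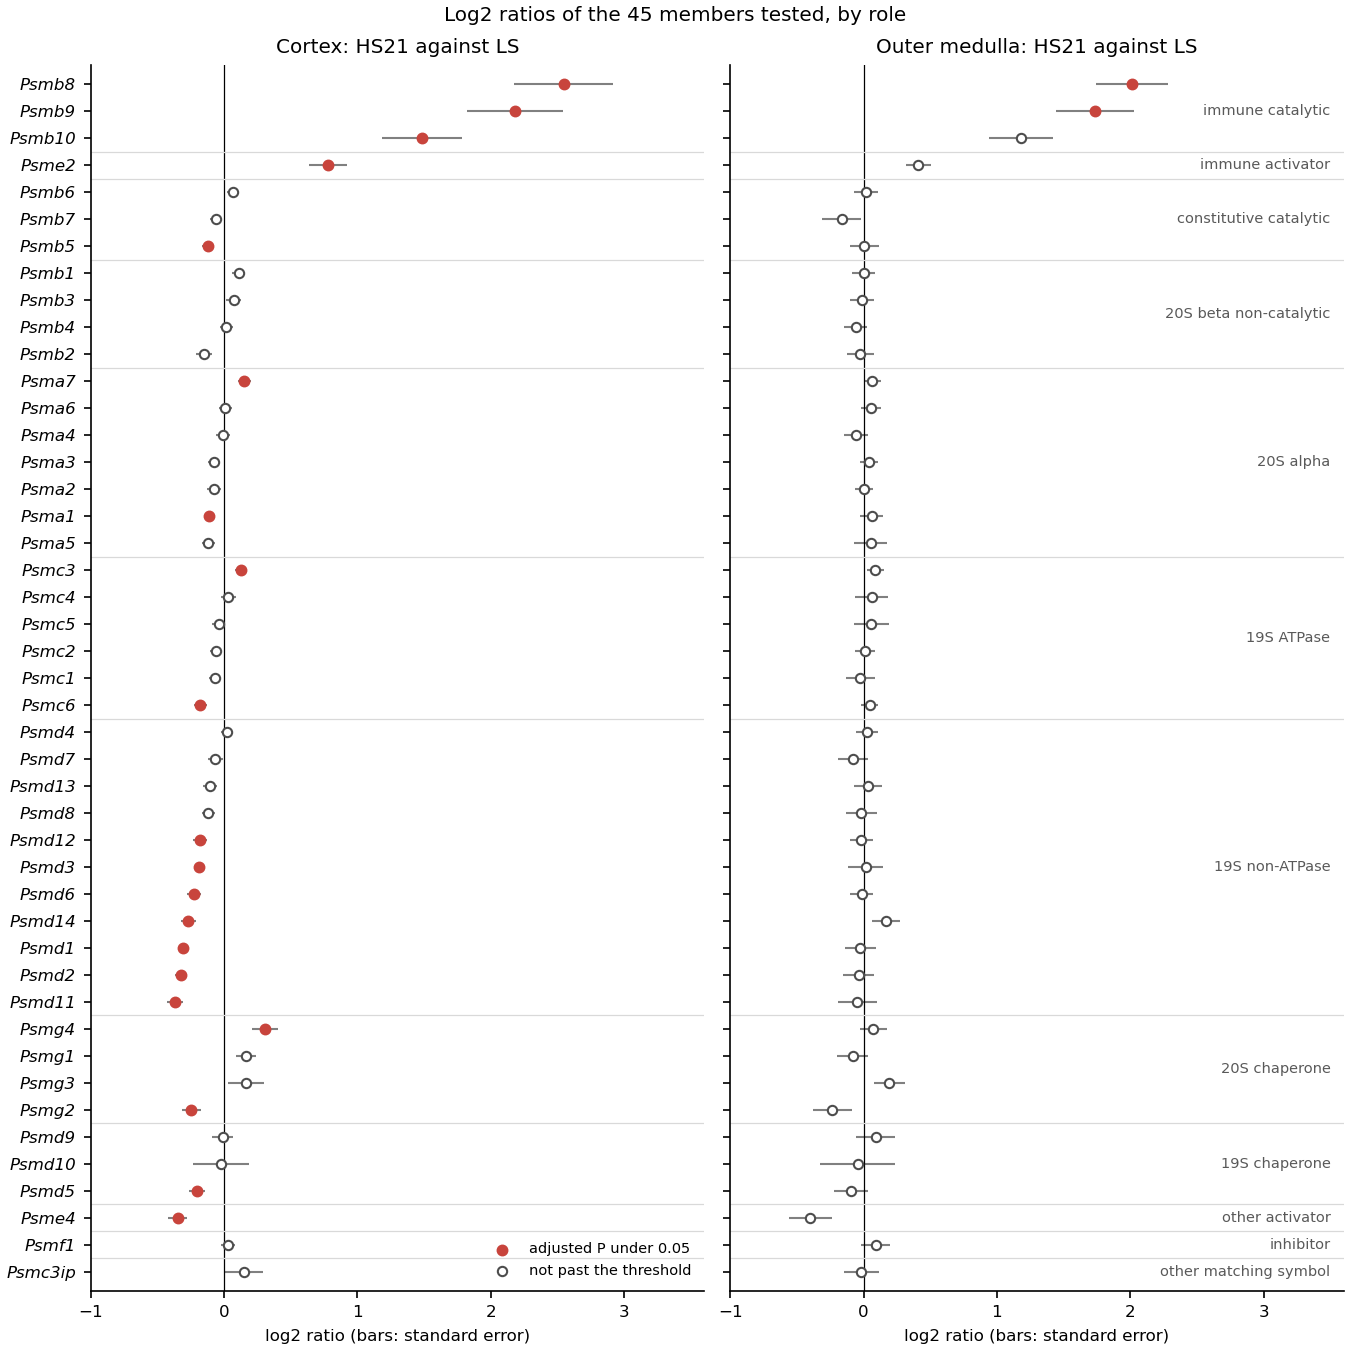
Log2 ratio of HS21 to LS (horizontal axes, bars for the SE) of the 45 members tested, ordered by role, for Cx on the left and OM on the right, with filled points for an adjusted *P* under 0.05. In Cx the immune genes stand at 0.78 to 2.55 and the others between -0.37 and 0.31, and in OM the filled points are *Psmb8* and *Psmb9*.

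The next question was whether the same held in the OM. *Psmb8* rose there by 4.03-fold and *Psmb9* by 3.32-fold at 21 d. *Psmb10* (2.27-fold) and *Psme2* (1.33-fold) did not pass the threshold. No constitutive member was called in either direction.

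*Psmb8* was measured at 10.8, 3.25, 6.81, 6.36 and 8.26 CPM in OM LS and at 33.5, 28.1, 21.6, 30.4 and 29.9 CPM in OM HS21. The groups did not overlap. On the log2 scale the rise was 2.01 (SE = 0.27, adjusted *P* = 0.0194).

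*Psmb9* was measured at 16.9, 7.61, 12.6, 13.03 and 15.6 CPM in OM LS and at 53.0, 37.6, 21.2, 48.6 and 57.8 CPM in OM HS21. Replicate 13 was again the lowest HS21 library, and the groups did not overlap. On the log2 scale the rise was 1.73 (SE = 0.29, adjusted *P* = 0.0327).

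*Psmb10* was measured at 19.4, 8.98, 15.5, 11.2 and 16.1 CPM in OM LS and at 39.4, 32.01, 19.9, 37.7 and 32.3 CPM in OM HS21. Replicate 13 of HS21 nearly met replicate 1 of LS. The log2 ratio was 1.18 (SE = 0.24, adjusted *P* = 0.0608).

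*Psme2* was measured at 60.9, 49.4, 53.3, 54.9 and 58.7 CPM in OM LS and at 83.3, 67.5, 64.0, 76.1 and 77.7 CPM in OM HS21. The groups did not overlap, and the log2 ratio was 0.41 (SE = 0.10, adjusted *P* = 0.0864). Over all 14555 genes tested in this comparison, 0.639% were raised and 0.131% lowered, beside 2 raised and 0 lowered members of 45 by edgeR. At an unadjusted *P* under 0.05, edgeR gave 4 raised members and 1 lowered, beside 1012 raised and 625 lowered of the 14555 genes. DESeq2 called 4 raised members, the 4 immune genes, and 0 lowered ones, beside 554 raised and 166 lowered of 17151 genes.

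The call of *Psmb8* in the OM was lost without LS replicate 3 or 4 or HS21 replicate 11, 14 or 15 (highest adjusted *P* = 0.0835), and that of *Psmb9* without LS replicate 1, 3 or 4 or HS21 replicate 11, 12, 14 or 15 (highest adjusted *P* = 0.118), with log2 ratios of 1.83 to 2.22 and 1.59 to 1.91. Without HS21 replicate 13, *Psmb10* passed the threshold (adjusted *P* = 0.0219).

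The other 41 members had a median log2 ratio of 0.003 in the OM, beside -0.03 over all genes, and 22 of them were above 0. Without OM LS replicate 2 the median was 0.059 and 36 were above 0. With all libraries, *Psmb5* had a log2 ratio of 0.01, *Psmb6* one of 0.02 and *Psmb7* one of -0.17, none past the threshold. The members with the smallest adjusted *P* outside the immune and catalytic genes were *Psme4* at -0.40 (adjusted *P* = 0.376), *Psmg3* at 0.19 (adjusted *P* = 0.626) and *Psmd14* at 0.17 (adjusted *P* = 0.627).

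The OM and Cx changes at 21 d were then set against each other in an interaction term of tissue and diet, without pairing by replicate number. For the immune genes the OM change minus the Cx change was -0.54 for *Psmb8* (SE = 0.48, adjusted *P* = 0.615), -0.46 for *Psmb9* (SE = 0.48, adjusted *P* = 0.685), -0.31 for *Psmb10* (SE = 0.40, adjusted *P* = 0.755) and -0.37 for *Psme2* (SE = 0.18, adjusted *P* = 0.332). The errors were too wide to separate the tissues. Of 45 members, 0 were called higher and 0 lower by edgeR, beside 0.448% and 0.217% of 15194 genes. At an unadjusted *P* under 0.05, edgeR gave 4 higher and 0 lower members, beside 1001 higher and 1366 lower genes. DESeq2 called 2 members higher, *Psmd14* and *Psmc6*, beside 337 higher and 201 lower of 14851 genes.

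No immune gene was called in the interaction with any single library left out. For other members, the absence of edgeR calls rested on OM LS replicate 2, the library with the most proximal tubule transcript among the OM. Without it, 4 members were called, all with a higher log2 ratio in the OM: *Psmd14* at 0.50 (SE = 0.12, adjusted *P* = 0.016), *Psmd2* at 0.40 (adjusted *P* = 0.0259), *Psmd1* at 0.39 (adjusted *P* = 0.0277) and *Psmc6* at 0.27 (adjusted *P* = 0.0239). All 4 encode subunits of the regulatory particle and were lowered in Cx HS21. Over all 15391 genes tested, 729 were then higher and 546 lower.

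At 14 d, 1 immune gene passed the threshold in the Cx and none in the OM. In Cx HS14 *Psmb10* was measured at 20.4, 16.5, 17.4, 19.4 and 15.7 CPM in replicates 6 to 10. Each of these was above the highest LS library, and the log2 ratio was 0.44 (SE = 0.10, adjusted *P* = 0.0493). It was the only member called, 1 raised and 0 lowered of 45, beside 1.14% and 1.18% of 14181 genes, and the call was kept only when HS14 replicate 10 was the library left out. At an unadjusted *P* under 0.05, edgeR gave 3 raised and 2 lowered members, beside 1284 raised and 1178 lowered genes. DESeq2 called *Psmb9* and *Psmb10* as raised and 0 members as lowered, beside 498 raised and 422 lowered of 15546 genes.

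*Psmb9* was measured at 27.4, 16.4, 16.9, 16 and 16.3 CPM in Cx HS14, all above Cx LS, with replicate 6 far above the others (log2 ratio 0.62, SE = 0.16, adjusted *P* = 0.0661). *Psmb8* was measured at 14.2, 7.79, 7.03, 9.71 and 6.50 CPM, which overlapped LS (log2 ratio 0.66, SE = 0.31, adjusted *P* = 0.294). *Psme2* stood at 0.15 on the log2 scale (SE = 0.07, adjusted *P* = 0.278). The constitutive members with the smallest adjusted *P* outside the catalytic genes were *Psma5* at -0.16 (adjusted *P* = 0.0955), *Psmb2* at -0.16 (adjusted *P* = 0.168) and *Psmd14* at -0.14 (adjusted *P* = 0.306).

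In OM HS14 no member was called. The log2 ratios were 0.59 for *Psmb8* (SE = 0.65, adjusted *P* = 0.994), 0.57 for *Psmb9* (SE = 0.38, adjusted *P* = 0.994), 0.50 for *Psmb10* (SE = 0.26, adjusted *P* = 0.973) and 0.01 for *Psme2* (SE = 0.28, adjusted *P* = 0.999). Replicate 10 gave much of this spread: it held 1 count of *Psmb8*, 0.179 CPM, beside 18.9, 9.26, 13.2 and 11.5 CPM in replicates 6 to 9. Without it the log2 ratios were 0.89 (SE = 0.33), 0.80 (SE = 0.24), 0.63 (SE = 0.23) and 0.22 (SE = 0.11), and still no member was called. Over all 14417 genes, 0.00694% were raised and 0.0% lowered. edgeR and DESeq2 called 0 members in either direction, while DESeq2 called 90 raised and 20 lowered of 15775 genes. At an unadjusted *P* under 0.05 edgeR gave 0 members as well, beside 617 raised and 209 lowered genes. Among the other members, whose adjusted *P* was 0.994 or more, *Psme4*, *Psmd2* and *Psmd1* had log2 ratios of -0.19, -0.03 and 0.11. The median of the other 41 members was -0.096, with 7 of them above 0. Without replicate 10 it was 0.057, with 32 above 0.

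The change from 14 to 21 d was then compared within each tissue. In the Cx all 4 immune genes were higher at 21 d than at 14 d, *Psmb8* by 1.88 on the log2 scale (SE = 0.33, adjusted *P* = 0.00833), *Psmb9* by 1.56 (SE = 0.37, adjusted *P* = 0.0186), *Psmb10* by 1.04 (SE = 0.29, adjusted *P* = 0.0351) and *Psme2* by 0.63 (SE = 0.15, adjusted *P* = 0.0215). The ranges overlapped for all 4 because of HS21 replicate 13, whose 13.5 CPM of *Psmb8* lay below the 14.2 CPM of HS14 replicate 6. In all 4 members were raised and 5 lowered, beside 6.5% and 9.69% of 14395 genes. The lowered members were *Psme4* (-0.32), *Psmd1* (-0.31), *Psmd11* (-0.29), *Psmd2* (-0.23) and *Psmb5* (-0.23), with adjusted *P* values of 0.0184, 0.0105, 0.0148, 0.0113 and 0.0227. With total counts the balance turned to 9 raised and 1 lowered members, beside 2084 raised and 644 lowered of 14395 genes. The balance over all genes thus turned as well, and their median log2 ratio went from 0.014 to 0.129.

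These calls depended on single libraries. Leaving out HS14 replicate 10 gave 9 raised and 7 lowered members, while leaving out HS14 replicate 7, 8 or 9 or HS21 replicate 14 gave 2, 1, 1 and 2 raised members. *Psmb8* kept its call in each of these. *Psmb9* lost it without HS14 replicate 8 or 9. *Psmb10* lost it without HS14 replicate 6, 7, 8 or 9 or HS21 replicate 11, 14 or 15, and *Psme2* without HS14 replicate 7, 8 or 9 or HS21 replicate 14. *Psmb5* lost its call without HS14 replicate 8 or HS21 replicate 15.

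In the OM edgeR called no gene between 14 and 21 d, 0.0% raised and 0.0% lowered of 14499, and DESeq2 called 17 raised and 10 lowered. Both called 0 members. At an unadjusted *P* under 0.05, edgeR gave 3 raised and 0 lowered members, beside 337 raised and 210 lowered genes. The 3 were *Psmb8*, *Psmb9* and *Psmb10*, with log2 ratios of 1.42, 1.16 and 0.69 and an adjusted *P* of 0.961 each. *Psme2* had a log2 ratio of 0.41. Without OM HS14 replicate 10 these were 1.13, 0.94, 0.55 and 0.20, and *Psmb5*, *Psmb6* and *Psmb7* had ratios of -0.12, -0.07 and -0.26. Of the remaining members, *Psme4*, *Psmd1* and *Psma7* had log2 ratios of -0.21, -0.13 and 0.17, each at an adjusted *P* of 0.961.

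The exchange of catalytic subunits was read as the share of each pair's summed FPKM that the immune gene held. In Cx LS this share was 1.51% to 5.12% for *Psmb8* beside *Psmb5*, and in Cx HS21 it was 16.1%, 14.4%, 7.67%, 18.5% and 24.9% in replicates 11 to 15. For *Psmb9* beside *Psmb6* the share was 7.63% to 10.5% in Cx LS and 26.2%, 24.3%, 12.5%, 32.95% and 43.7% in Cx HS21. For *Psmb10* beside *Psmb7* it was 24.8% to 29.7% in Cx LS and 50.3%, 45.1%, 30.9%, 60.15% and 63.35% in Cx HS21. In each pair the HS21 libraries lay above all LS libraries, and *Psmb10* exceeded *Psmb7* in 3 of the 5 in FPKM. In CPM, which does not divide by gene length, *Psmb10* exceeded *Psmb7* only in replicate 15 (59.6 beside 58.7 CPM). In the OM the mean share rose from 4.14% to 14.45% for *Psmb8*, from 10.2% to 26.2% for *Psmb9* and from 32.1% to 53.8% for *Psmb10*. These are shares of transcript, and the assembled protein was not measured.

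**Figure D3:**
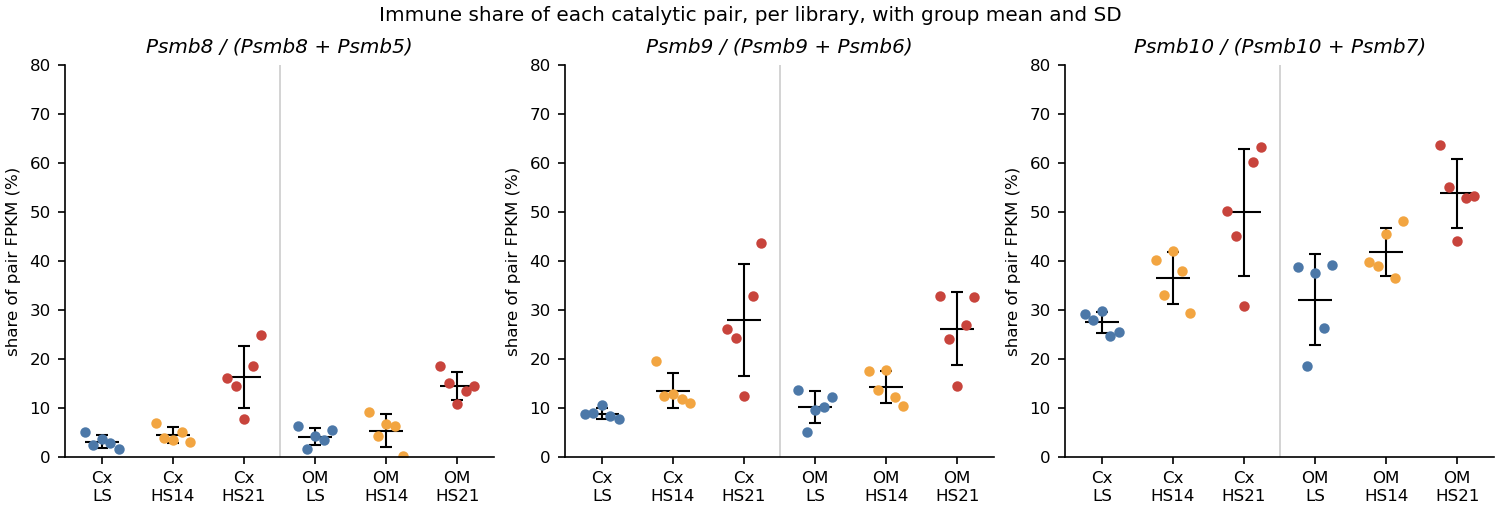
Share of each catalytic pair's summed FPKM held by the immune gene, in percent (vertical axes), in each library, with groups by tissue and diet and the mean ± SD (n = 5). Every HS21 library lies above every LS library of its tissue, with Cx means of 16.3%, 27.9% and 49.95% at HS21 for the 3 pairs.

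The log2 ratio of the pair in CPM was tested by a two-sided exact permutation of 5 against 5 libraries, for 3 pairs and 7 comparisons, 21 tests in all, with *P* adjusted over them. In Cx HS21 the ratio was 2.61 higher than in LS for *Psmb8* to *Psmb5*, 1.90 higher for *Psmb9* to *Psmb6* and 1.39 higher for *Psmb10* to *Psmb7*. In OM HS21 it was 2.07, 1.66 and 1.34 higher. Each of these 6 had an exact *P* of 0.00794, the smallest that 252 regroupings allow, and an adjusted *P* of 0.0185, kept with each library left out. In Cx HS14 the ratio was 0.66 higher for *Psmb9* to *Psmb6* (adjusted *P* = 0.0185 by the exact permutation) and 0.59 higher for *Psmb10* to *Psmb7* (adjusted *P* = 0.0333, lost without LS replicate 4), and it was 0.60 higher for *Psmb8* to *Psmb5*, with overlapping groups and an adjusted *P* of 0.186.

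In OM HS14 the 3 differences were -0.07, 0.60 and 0.64, none past the threshold (adjusted exact *P* = 0.976, 0.122 and 0.125), and the first was 0.79 without replicate 10. From 14 to 21 d the *Psmb8* to *Psmb5* ratio was higher by 2.02 in the Cx and 2.14 in the OM (adjusted exact *P* = 0.0185 for both). The *Psmb9* to *Psmb6* ratio was higher by 1.24 and 1.06 (adjusted exact *P* = 0.0385 for both). In the Cx this call was kept only when HS14 replicate 6 or HS21 replicate 13 was the library left out, and in the OM only when HS14 replicate 6 or 8 or HS21 replicate 13 was. The *Psmb10* to *Psmb7* ratio was higher by 0.79 in the Cx (adjusted exact *P* = 0.107, and 0.0167 without HS21 replicate 13) and by 0.70 in the OM (adjusted exact *P* = 0.0385, kept only without HS14 replicate 8 or 10 or HS21 replicate 13).

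The tissues were also compared on the LS diet, without pairing libraries by replicate number. *Psme2* was higher in the OM than in the Cx, 49.4 to 60.9 CPM beside 45.9 to 48.3 CPM, with no overlap (log2 ratio 0.23, SE = 0.06, adjusted *P* = 0.0156, lost without Cx LS replicate 2, 3, 4 or 5). *Psmb8*, *Psmb9* and *Psmb10* had log2 ratios of 0.31, 0.12 and 0.11, less than their errors of 0.36, 0.19 and 0.19. The pair ratios differed by 0.41, 0.15 and 0.28, none past the threshold (adjusted exact *P* = 0.454, 0.658 and 0.465). Without OM LS replicate 2 the *Psmb9* to *Psmb6* ratio was 0.41 higher in the OM (adjusted exact *P* = 0.0476).

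Among all members, 3 were higher and 7 lower in the OM on LS, beside 21.3% and 19.5% of 14295 genes. *Psmg1*, a core chaperone, was 0.43 higher (adjusted *P* = 0.00467) and *Psmc3ip* 0.49 higher (adjusted *P* = 0.0198). The lower members were led by *Psmd11* at -0.52 (SE = 0.12, adjusted *P* = 0.00729), which was measured at 70.0 to 118 CPM in OM LS (median 88.5) and 124 to 135 CPM in Cx LS, with no overlap and the highest OM value in replicate 2. They were followed by the chaperone *Psmd9* at -0.42 (adjusted *P* = 0.00858), *Psmd14* at -0.37 (adjusted *P* = 0.00422), *Psme4* at -0.33 (adjusted *P* = 0.012) and *Psmf1* at -0.29 (adjusted *P* = 0.0253), and by the regulatory subunits *Psmd6* and *Psmc2* at -0.23 and -0.20.

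The tissue comparison changed with OM LS replicate 2 and with the scaling. Without that library, 20 members were lower and 3 higher in the OM, beside 26.0% and 25.9% of 14561 genes, and *Psmd11* stood at -0.65. *Psmc5*, *Psmc4* and *Psmd3* of the regulatory particle were then called lower, with log2 ratios of -0.40, -0.35 and -0.40. Leaving out OM LS replicate 1 or 3 gave 4 lower members, and leaving out Cx LS replicate 5 gave 1 higher one. With total counts 16 members were higher and 1, *Psmd11*, lower, beside 5546 higher and 1842 lower of 14295 genes. The median log2 ratio of all genes went from 0.029 to 0.268, so these counts are not read as particular to the members.

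Markers of other cells moved with the immune genes, and their part in these results was not tested. The summed CPM of 9 leukocyte genes (*Ptprc*, which encodes the common leukocyte antigen, *Itgb2* and others) was 102 to 138 in Cx LS, 157 to 234 in Cx HS14 and 228 to 741 in Cx HS21. It was 87.5 to 179 in OM LS, 226 to 282 in OM HS14 and 272 to 490 in OM HS21. All 8 leukocyte genes tested were raised in Cx HS21 (median log2 ratio 1.89) and 6 of 8 in OM HS21 (median 1.49). The shares over all genes tested stand beside these and the later lists. They were 18.9% raised and 20.5% lowered in Cx HS21, and 0.639% and 0.131% in OM HS21. Of the T cell genes, 5 of 5 tested were raised in Cx HS21 and 1 of 6 in OM HS21, with *Cd3e* at 3.96 and 2.43. Their summed level was 4.56 to 8.87 CPM in Cx LS and 13.9 to 75.6 CPM in Cx HS21, and 3.33 to 12.2 CPM in OM LS and 16.7 to 49.3 CPM in OM HS21.

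All 7 macrophage genes tested were raised in Cx HS21 and 2 of 7 in OM HS21, and the sum of the 8 listed rose from 856 to 1004 CPM in Cx LS to 1158 to 3138 CPM in Cx HS21. The sum was 349 to 828 CPM in OM LS and 1170 to 2070 CPM in OM HS21. The 4 B cell genes summed to at most 4.13 CPM in any library, and none passed the filter in Cx HS21, while 0 of the 2 tested were called in OM HS21. No gene of these 4 lists was at 0 in a whole group. The sums and the immune genes shared their extremes in the Cx: replicate 15 was the highest and replicate 13 the lowest HS21 library for the leukocyte, T cell and macrophage sums and for all 4 immune genes. In the OM replicate 13 was the lowest for the same sums and genes. Whether Cx and OM replicate 13 came from the same rat was not stated.

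**Figure D4:**
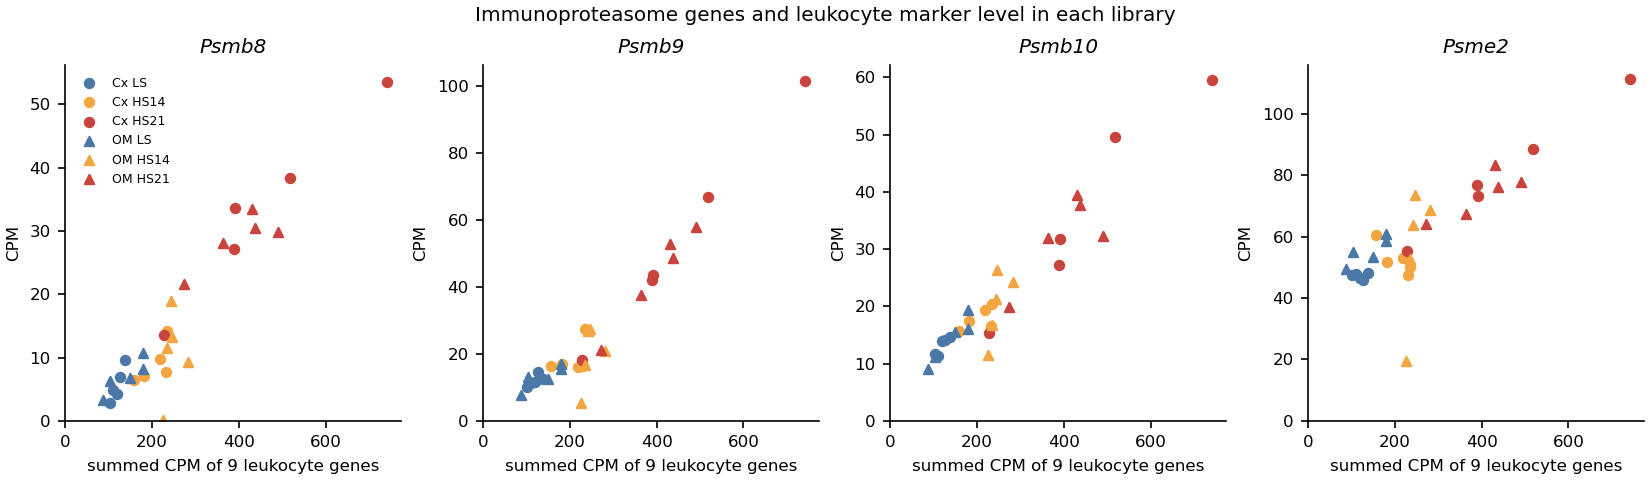
CPM of the 4 immune genes tested (vertical axes) against the summed CPM of 9 leukocyte genes (horizontal axes) in the 30 libraries, with circles for Cx, triangles for OM and colours for the diet groups. Cx HS21 replicate 15, at 741 CPM of leukocyte genes, is the highest library for *Psmb8*, *Psmb9*, *Psmb10* and *Psme2*, and OM HS14 replicate 10, at 226 CPM, lies below the other OM HS14 libraries for all 4.

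Tubule markers changed in both directions in Cx HS21. All 8 proximal tubule genes, among them *Slc34a1*, the phosphate transporter, were lowered in Cx HS21 (median log2 ratio -0.80), and their sum fell from 19860 to 21960 CPM in Cx LS to 11720 to 15620 CPM in Cx HS21. In OM HS21, 0 of 8 were called. Of the other nephron markers in Cx HS21, 2 of 3 thick ascending limb genes, 1 of 1 distal convoluted tubule gene tested (*Pvalb*, the other one listed, was at 0 in all groups) and 2 of 3 collecting duct genes were raised, and 0 of these were called in OM HS21. The defining markers of each tissue were present, with *Umod*, *Slc12a1* and *Cldn16* of the thick ascending limb summing to 9886 to 20870 CPM in OM LS and 1175 to 1817 CPM in Cx LS.

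Genes that act with the immune subunits in class I presentation were read beside them. *Tap2*, also listed, had 2 entries under its symbol and was left out. In Cx HS21, 9 of the 12 genes tested rose and 1 fell (median log2 ratio 0.95). *Tap1*, the neighbour of *Psmb8* and *Psmb9*, had a log2 ratio of 2.06 (adjusted *P* = 0.00192), *Nlrc5*, the transactivator of class I genes, 2.16 (adjusted *P* = 0.00173), the class I gene *RT1-A2* 2.41 (adjusted *P* = 0.00158) and its relative *RT1-CE10* 1.99 (adjusted *P* = 0.000899). The chaperone *Canx* fell by 0.20. In OM HS21, 2 of the 12 passed (median log2 ratio 1.0), *B2m* at 1.004 and *Tapbp* at 0.51, and *Tap1* stood at 1.68 (adjusted *P* = 0.0604). Class I genes are a multigene family, and reads shared between near-identical copies could have been split or lost in counting, which was not tested.

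Of the interferon signalling genes, 7 of 10 tested were raised in Cx HS21 and 0 lowered (median log2 ratio 0.58), including *Socs1* at 2.27 and *Irf1* at 1.81 (adjusted *P* = 0.00567 and 0.000744). The 3 that were not called, *Irf7*, *Jak1* and *Jak2*, stood at -0.01, 0.04 and 0.13. *Ifng* itself was below the filter. In OM HS21, 0 of the 10 were called by edgeR, and the median log2 ratio was 0.38.

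Factors that work with the constitutive proteasome were also read, without *Sem1*, *Ecpas*, *Paaf1* and *Ubb*, which were listed but had no entry under these symbols. In Cx HS21, 2 of 19 tested rose and 8 fell, with a median log2 ratio of -0.11. Over all 14299 genes tested, 18.9% were raised and 20.5% lowered. The list was read with TMM only, and total counts moved the median of all genes from 0.005 to 0.134. These falls are therefore not read as particular to the listed factors. *Vcp*, the ATPase that extracts ubiquitinated proteins, fell by 0.39 and *Rad23b*, a shuttle for them, by 0.37. *Rps27a*, which encodes ubiquitin fused to a ribosomal protein, rose by 0.70. In OM HS21, 0 of the 20 tested were called in either direction by edgeR.

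The spread between libraries was compared as a description without a test. The SD of log2 CPM in Cx HS21 was 0.74 for *Psmb8*, 0.92 for *Psmb9*, 0.77 for *Psmb10* and 0.37 for *Psme2*, and its median over the other members tested was 0.07. In Cx LS it was 0.64, 0.19, 0.17 and 0.03, beside 0.06, so *Psme2* was below the median there. In OM LS it was 0.63, 0.44, 0.44 and 0.12, beside 0.165, and in OM HS21 it was 0.24, 0.58, 0.39 and 0.155, beside 0.14. In OM HS14 the median over the other members was 0.44, the highest of the 6 groups, and that group holds replicate 10.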

How the data were processed

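Poly(A) mRNA of the right kidney Cx and OM of 30 libraries was sequenced as unstranded paired ends. The authors aligned reads to Ensembl Rnor_6.0 with HISAT2 2.0.5 and counted them with featureCounts 1.5.0-p3 (versions from the submitters' processing notes), and deposited raw counts per gene. The deposited FPKM values are these counts per kilobase of gene length and scaled library. Columns with the authors' own fold changes and *P* values were not used.

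Counts were tested with edgeR 4.0.16 (TMM, filterByExpr, quasi-likelihood F-test, Benjamini-Hochberg over all genes), fitted on the groups compared only, and fold changes are from this fit. SE is the absolute log2 ratio divided by the square root of the F statistic of this test, not an error reported by the fit. A call means an adjusted *P* under 0.05. CPM is counts relative to library size after TMM. Catalytic pairs were tested by exact permutation on log2 CPM ratios. Alternatives were DESeq2 1.42.0, its size factors, total counts, no filter, one fit of 30 libraries, a replicate block and leaving out each library. The procedure was checked on simulated counts.

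The members, gene lists and tests were chosen with earlier results of these data known. Named in every comparison were the immune genes and their catalytic counterparts, plus the other members with the largest changes among those called, or the smallest adjusted *P* where none was called, and others named beside a count were picked after their values were seen. Whether libraries of a group came from separate rats was taken from their replicate labels, and *P* values measure the spread between these libraries. Libraries held 5408126 to 21842843 counts, which limits precision most in OM HS14 replicate 10. Promoters were from RefSeq (GRCr8) and 43 of 48 members matched.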

Additional observations from a re-analysis of the deposited data

Results flagged for a closer look

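Samples far from the rest of their group were looked for in 42 sets, 7 genes in 6 groups of 5 libraries, and 3 were found. Chance marks about 1 in 20 such sets. *Psmb9* in Cx HS14 replicate 6 was at 27.4 CPM, the highest of its group, and the nearest library was at 16.9 CPM. *Psmb5* in OM HS14 replicate 10 was at 37.7 CPM, the lowest of its group, with the nearest at 72.9 CPM. *Psmb6* in the same library was at 21.1 CPM, with the nearest at 57.0 CPM. The part of that library's depth and RNA quality in the last 2 values was not tested.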

How the results depend on the processing

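In Cx HS14 the raised members were 0 with total counts, without a filter and in one fit of 30 libraries, 2 with DESeq2, and 0 to 1 with single libraries left out. In Cx HS21 they were 15 with total counts, 4 in one fit of 30 libraries and 4 to 7 with libraries left out, and the lowered members were 4, 3 and 7 to 12. In OM HS21 the raised members were 1 with total counts, 4 with DESeq2 and 0 to 3 with libraries left out. Between 14 and 21 d in the Cx they were 9 with total counts and 1 to 9 with libraries left out, and the lowered ones were 1 with total counts and 0 in one fit of 30 libraries. In OM against Cx on LS the raised members were 16 with total counts and 1 to 3 with libraries left out, and the lowered ones were 1 with total counts, 4 without a filter, 4 in one fit of 30 libraries and 4 to 20 with libraries left out. The interaction gave 2 raised members with DESeq2 and 0 to 4 with libraries left out. The counts over all genes also changed with the scaling and the tool, so these member counts are not read as particular to the members.

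With libraries left out, the *Psmb8* to *Psmb5* ratio in OM HS14 ranged from -0.42 to 0.79. The *Psmb9* to *Psmb6* ratio ranged from 0.96 to 1.57 and from 0.93 to 1.31 between 14 and 21 d in the Cx and the OM, and from 0.013 to 0.405 between the tissues on LS. The *Psmb10* to *Psmb7* ratio ranged from 0.51 to 0.71 in Cx HS14, and from 0.60 to 1.08 and from 0.55 to 0.84 between 14 and 21 d in the Cx and the OM.

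Total counts changed the sign of *Psmb5* (to 0.008) and *Psmb7* (to 0.068) in Cx HS21, of *Psme2* in OM HS14 (to -0.025), and of *Psmb5*, *Psmb6* and *Psmb7* between the tissues (to 0.141, 0.164 and 0.033). Leaving out single libraries changed the sign of small log2 ratios. In OM HS14 the ranges were -0.115 to 0.219 for *Psme2*, -0.096 to 0.135 for *Psmb5*, -0.169 to 0.094 for *Psmb6*, -0.198 to 0.107 for *Psmb7* and -0.095 to 0.055 for *Psmd2*. In OM HS21 they were -0.05 to 0.083 for *Psmb5* and -0.016 to 0.092 for *Psmb6*. Between 14 and 21 d they were -0.01 to 0.149 for *Psmb7* in the Cx, and in the OM -0.118 to 0.112 for *Psmb5*, -0.065 to 0.196 for *Psmb6*, -0.263 to 0.04 for *Psmb7*, -0.372 to 0.025 for *Psme4* and -0.008 to 0.292 for *Psma7*. They were -0.023 to 0.224 for *Psmb10* between the tissues, and for the interaction -0.085 to 0.049 for *Psmb6* and -0.194 to 0.027 for *Psmb7*. The cause was not tested.

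Cx and OM libraries shared replicate numbers. The paper states that collected kidneys were dissected into cortex and outer medulla, but not that equal numbers name the same rat. Only 10 of 15 equal-numbered pairs deviated together at r over 0.1 (lowest -0.07, highest 0.44). Since 13 of 15 correlated best with their own number, the pairing is also a hint from the data. The main tissue comparison and interaction did not use it. With a replicate block, 3 members were raised and 5 lowered between the tissues on LS, and 0 and 0 in the interaction. Of the catalytic pair ratios none passed (smallest possible sign-flip *P* 0.0625).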
